A study of Mus musculus with 6 samples.

Results

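The NF-kB genes described here were 5 subunits (*Nfkb1*, *Nfkb2*, *Rel*, *Rela* and *Relb*) and 5 inhibitors (*Nfkbia*, *Nfkbib*, *Nfkbie*, *Nfkbid* and *Tnfaip3*). They are 10 of the 27179 genes in the count table. They were chosen by name and function, but with earlier results of these data known. RNA-seq was performed on 6 libraries of germinal center (GC) B cells sorted from the spleens of C57BL/6 mice given NP-KLH in alum intraperitoneally, with 1 library per genotype, wild-type (WT) or *Il21r*-/-, at each of 3 times after immunization (days 7, 10 and 14). NP-KLH is a hapten on a carrier protein that elicits a T cell-dependent response, and the *Il21r*-/- mice lack a functional receptor for IL-21, a cytokine of T follicular helper cells. Both genotypes received the same antigen, and no unimmunized library was included. The sorted cells bound NP, carried IgG1 and B220, and lacked CD138, IgM, IgD, Gr1 and CD38, so light zone and dark zone cells of the GC were sequenced together. According to the study's methods, these experiments used irradiated Ly5.1 hosts that had received WT or *Il21r*-/- bone marrow, so the deletion was carried by all blood cells of donor origin and not by B cells alone, while host cells that outlive irradiation kept the receptor. The labels give only the genotype. The mice were matched for age and sex, with an age range given for the whole study and none by library. The labels name 1 mouse per library whereas the study's methods imply more mice than libraries. Each genotype had 3 libraries of different days, so the SD of a genotype over its 3 libraries holds day as well as replicate spread.

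NF-kB is a family of transcription factors that act as dimers. *Rela*, *Rel* and *Relb* encode the subunits that can activate transcription, and *Nfkb1* and *Nfkb2* encode precursors that are processed into DNA-binding partners. In resting cells the IkB proteins hold dimers in the cytoplasm until the IKK kinases mark them for degradation. The canonical pathway, engaged through the B cell receptor, CD40 and Toll-like receptors, releases mostly dimers with *Rela* and *Rel* products, and the alternative pathway processes the *Nfkb2* precursor through the kinase NIK and releases dimers with RelB. Several inhibitor genes, *Nfkbia*, *Nfkbie* and *Tnfaip3* among them, are themselves induced by NF-kB and form its negative feedback. In the GC, NF-kB activity is known to be highest in light zone cells that receive antigen and T cell help. RNA levels measure none of this activity, which depends on protein processing and location.

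The 6 libraries held 21353438 to 27435124 counted reads, of which the 10 genes took 0.0568 to 0.081%. All 10 genes passed the expression filter and were among the 11005 genes tested. Transcripts of GC B cells were present in every library, with *Bcl6* at 145.2 to 239.4 CPM (counts scaled to library size). The T cell gene *Cd3e* was at 0 to 0.0937 CPM and the plasma cell surface gene *Sdc1* at 0.361 to 0.854 CPM. Other genes of the plasma cell list were not low, such as *Xbp1* at 198.1 to 305 CPM. That list summed to 2524 to 2739 CPM in WT and to 2774 to 3621 CPM in *Il21r*-/- libraries. *Il21r* reads were at 246.6 to 345.8 CPM in WT and at 105.8 to 127.6 CPM in *Il21r*-/- libraries, a log2 fold change of 1.29 (SE 0.13, edgeR quasi-likelihood adjusted p = 0.00137), so the labels and the targeted gene went the same way although reads remained. The number of genes that differed between genotypes depended on single libraries, and changed from 651 to 2165 without the *Il21r*-/- library of day 10 and to 132 without the WT library of day 14. The *Il21r*-/- library of day 10 held the highest CPM of 5 of the 10 genes (*Nfkb1*, *Nfkb2*, *Rela*, *Relb* and *Tnfaip3*), beside 20.2% of all genes tested, and the WT library of day 14 the lowest CPM of 3, beside 22.7%. Results of the 10 genes, and linear-day calls of pathway genes, that turn on either library are therefore also given without it. The counts over marker and zone lists, the *Il21r* difference and blocked calls of pathway genes are given with all libraries only.

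Promoter sequence is shown because several of these genes are known NF-kB targets. RefSeq windows of GRCm38.p6, from 250 bases before to 50 bases after a transcription start, were at hand for 8 of the 10 genes (all but *Nfkb1* and *Relb*), in 13 windows. The NF-kB consensus, searched on both strands, was found in windows of 6 of the 8 genes, against 9.55% of the 27025 genes with a window. Its narrower form (GGGA, any base, then TTTCC), which is contained in the consensus, was found for *Nfkb2* and *Nfkbia*, against 0.466% of those genes. *Rela* and *Nfkbib* had no match in their windows. The windows printed here belong to the 4 genes whose genotype difference passed the threshold in the fit that paired libraries by day. *Rel* and *Nfkbid*, which did not pass it, also had matches to the consensus. For *Nfkb2* the window with the most matches is shown, and its matches to the narrower form lie in other windows. Capitals mark bases within a match to the consensus on either strand. A match is a stretch of letters and was not measured as a bound site.
Nfkbia, chr12:55492598-55492897, minus strand: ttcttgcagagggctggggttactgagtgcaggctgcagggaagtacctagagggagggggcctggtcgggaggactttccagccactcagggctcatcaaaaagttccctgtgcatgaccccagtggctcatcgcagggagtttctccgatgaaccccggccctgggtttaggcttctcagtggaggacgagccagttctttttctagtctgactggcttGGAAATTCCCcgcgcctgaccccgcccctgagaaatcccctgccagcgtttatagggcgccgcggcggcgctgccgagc
Tnfaip3, chr10:19015361-19015660, minus strand: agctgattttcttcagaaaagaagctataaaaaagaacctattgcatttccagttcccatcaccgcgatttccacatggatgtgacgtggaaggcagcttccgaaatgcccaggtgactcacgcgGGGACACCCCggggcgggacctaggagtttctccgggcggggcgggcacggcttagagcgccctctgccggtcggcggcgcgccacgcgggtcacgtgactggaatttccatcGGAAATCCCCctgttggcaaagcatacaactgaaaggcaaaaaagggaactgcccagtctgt
Nfkbie, chr17:45555450-45555749, plus strand: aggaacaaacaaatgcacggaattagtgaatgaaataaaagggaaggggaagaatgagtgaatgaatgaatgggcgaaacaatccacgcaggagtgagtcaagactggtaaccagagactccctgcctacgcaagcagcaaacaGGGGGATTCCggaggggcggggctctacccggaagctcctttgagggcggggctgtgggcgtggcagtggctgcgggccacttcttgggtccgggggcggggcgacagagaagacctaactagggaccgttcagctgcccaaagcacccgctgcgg
Nfkb2, chr19:46304487-46304786, plus strand: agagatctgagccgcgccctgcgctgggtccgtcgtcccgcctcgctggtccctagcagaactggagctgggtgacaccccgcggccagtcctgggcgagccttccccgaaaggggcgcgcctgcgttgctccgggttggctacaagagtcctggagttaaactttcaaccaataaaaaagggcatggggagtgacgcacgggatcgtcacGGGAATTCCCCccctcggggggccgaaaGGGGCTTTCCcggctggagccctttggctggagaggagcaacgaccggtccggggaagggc
Positions count from the transcription start to the farther end of a match. In *Nfkbia* the match lay 29 bases before the start and read GGGAATTTCC on the other strand. In *Tnfaip3* matches lay 125 and 12 bases before the start, and the nearer read GGGGATTTCC on the other strand. In *Nfkbie* the match lay 106 bases before the start and read GGGGGATTCC. In *Nfkb2* matches lay at the overlapping positions 39 and 38 and at 11 bases before the start, the last as GGGGCTTTCC.

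The comparison of WT with *Il21r*-/- cells over the 3 days asked whether loss of IL-21 signaling altered the RNA of the NF-kB system. The larger differences lay in the inhibitors. *Tnfaip3*, *Nfkbia* and *Nfkbie* were the members whose 3 *Il21r*-/- libraries all lay above all 3 WT libraries. The subunit genes *Nfkb1*, *Rel* and *Rela* showed small differences with intervals on both sides of zero. A fold change is given as log2 of WT over *Il21r*-/-, so that a negative value is higher in *Il21r*-/- cells, and a gene is called when its adjusted p is under 0.05. In the fit with day as a linear covariate, 0 of the 10 genes were called by edgeR's quasi-likelihood test, beside 5.92% of all genes tested. Of the 10, 3 had an unadjusted p under 0.05, as had 2356 of all 11005 genes. DESeq2's Wald test on the same model called 2, *Nfkbia* and *Tnfaip3*, beside 8.64% of all genes. The day also pairs the libraries of both genotypes, and in a fit that takes day as a block the calls numbered 4 of 10, each with the higher level in *Il21r*-/- cells, beside 13.6% of all genes called in that direction and 22.9% called in either. Each of the 6 libraries was also left out of the blocked fit in turn. Without a library of day 7, 5 or 6 of the 10 genes were called, beside 19.5 to 19.7% of all genes tested. Without any one library of day 10 or day 14, 1 was called, *Tnfaip3*, beside 9.22 to 14.9% of all genes tested. The other library of that day then adds nothing to the genotype estimate, because the day has its own term. These 6 refits thus amount to leaving out each of the 3 days. Of the 10 genes, 9 had a log2 fold change below zero, and their median was -0.21 against -0.01 over all genes. In bulk RNA of sorted cells, fewer cells of a type and less RNA per cell cannot be told apart.

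**Figure D1:**
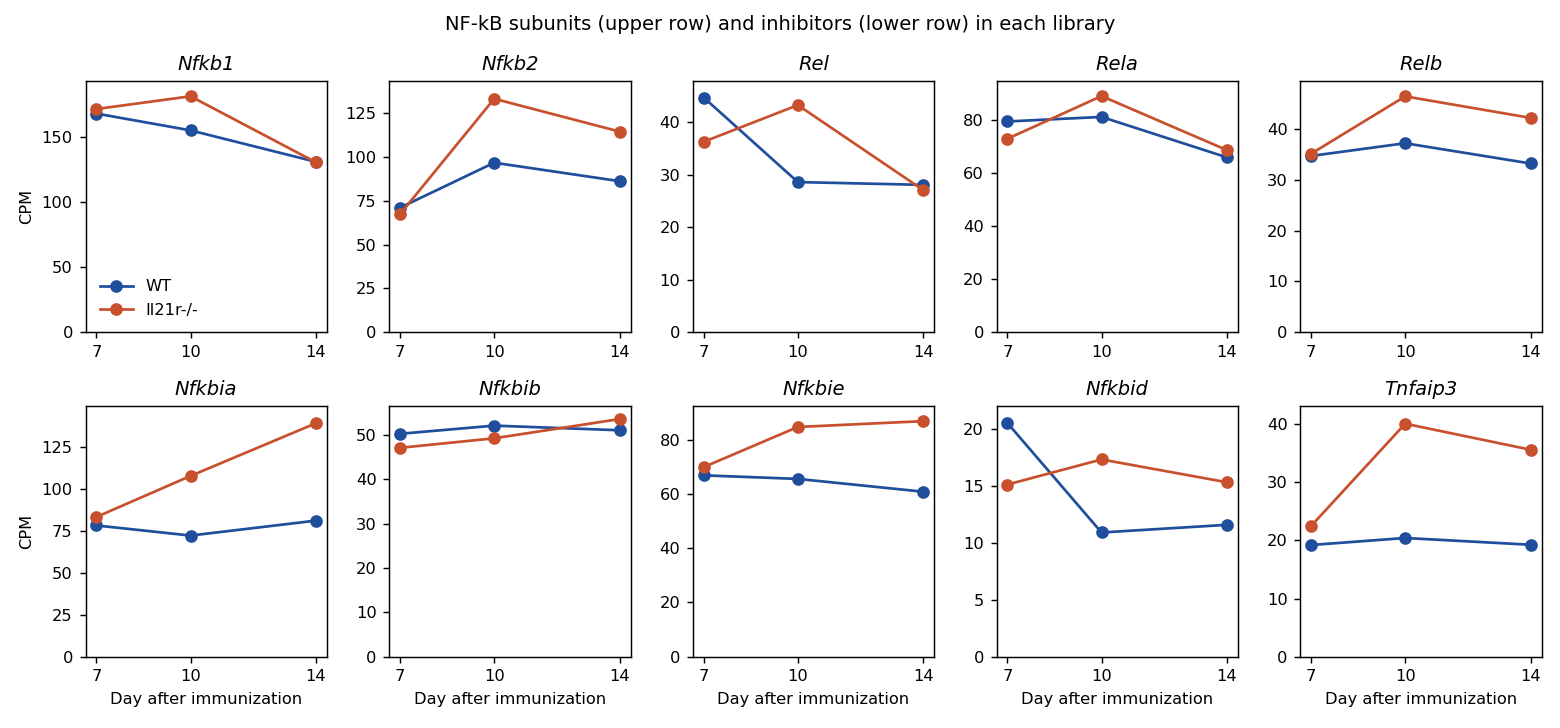
CPM of each gene (vertical axes, starting at 0 and scaled per gene) against day after immunization, with 1 point per library and lines joining the libraries of WT (blue) and *Il21r*-/- mice (orange). For *Nfkbia*, *Nfkbie* and *Tnfaip3* the lines lie close together on day 7 and apart on days 10 and 14, with *Il21r*-/- above.

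*Tnfaip3* (Entrez 21929, chromosome 10, 19000910 to 19015410) encodes a ubiquitin-editing enzyme that removes signaling chains from adapters upstream of IKK. Its level was 19.2 CPM in WT and 22.5 CPM in *Il21r*-/- cells on day 7, 20.4 and 40.0 CPM on day 10, and 19.2 and 35.6 CPM on day 14. The WT libraries spanned a narrow range, 19.6 ± 0.684 CPM (SD, n = 3), and the *Il21r*-/- libraries of days 10 and 14 were well above it, 32.7 ± 9.13 CPM over the 3 days. The difference over 3 days was -0.72 (SE 0.18, 1.65-fold, adjusted p = 0.0575), just outside the threshold, and -0.70 with day as a block (SE 0.13, edgeR adjusted p = 0.000545). Without the *Il21r*-/- library of day 10 it was smaller, -0.52, and was called with linear day (edgeR adjusted p = 0.0198) and with day as a block (-0.56, adjusted p = 0.0254). Without the WT library of day 14 it was -0.57 with linear day (edgeR adjusted p = 0.378). *Tnfaip3* was the only one of the 10 genes called in the blocked fit whichever library was left out. Its log2 fold changes there ranged from -0.92 to -0.56. In the blocked fit the 2 libraries of a day drop out together, so this covers 3 separate refits and not 6. As 1 of 10 genes it stands near the 9.22 to 14.9% of all genes called without a library of day 10 or 14. The share of all genes called in every refit was not counted.

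*Nfkbia* (Entrez 18035, chromosome 12, 55489409 to 55492647) encodes IkB-alpha, the inhibitor that is degraded and resynthesised fastest. It was measured at 78.3 CPM in WT and 83.4 CPM in *Il21r*-/- cells on day 7, at 72.2 and 107.8 CPM on day 10, and at 81.2 and 139.2 CPM on day 14. WT levels stayed within 77.2 ± 4.55 CPM (SD, n = 3), and the highest value was the *Il21r*-/- library of day 14. The genotype difference was -0.48 (SE 0.13, 1.396-fold, adjusted p = 0.0736), and the pairing by day gave the same size with a smaller error (-0.48, SE 0.11, edgeR adjusted p = 0.00684). It was called with linear day when the *Il21r*-/- library of day 10 was left out (-0.48, edgeR adjusted p = 0.0330) or the WT library of day 7 (-0.64, adjusted p = 0.0415), and was at -0.36 (adjusted p = 0.468) without the WT library of day 14. In the blocked fit the call was lost without any one library of day 10 or 14, at adjusted p from 0.0742 to 0.140.

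*Nfkbie* (Entrez 18037, chromosome 17, 45555700 to 45563169) encodes IkB-epsilon, an inhibitor that is induced by NF-kB and is prominent in B cells. WT and *Il21r*-/- cells had 66.8 and 69.9 CPM on day 7, 65.5 and 84.6 CPM on day 10, and 60.8 and 86.8 CPM on day 14. The groups did not overlap, but the gap between the highest WT and the lowest *Il21r*-/- library, both of day 7, was narrow. The log2 fold change was -0.32 (SE 0.11, 1.25-fold, edgeR adjusted p = 0.150), called only with day as a block (-0.32, SE 0.09, edgeR adjusted p = 0.0107). Leaving out a library of day 10 or 14 ended that call, at adjusted p from 0.0963 to 0.302. Together with *Nfkbia* and *Tnfaip3*, 3 of the 10 genes had CPM values that did not overlap between genotypes, all higher in *Il21r*-/- cells, beside 10.0% of all genes tested in that direction.

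*Nfkbid* and *Nfkbib* did not separate by genotype. *Nfkbid* (Entrez 243910, chromosome 7, 30421731 to 30428749) encodes an atypical, nuclear IkB protein that modulates transcription by NF-kB. It had 20.5 CPM in WT and 15.1 CPM in *Il21r*-/- cells on day 7, 10.9 and 17.3 CPM on day 10, and 11.6 and 15.3 CPM on day 14. The WT library of day 7 was the highest of the 6 and the other WT libraries were the lowest, so its sign on day 7 (0.44, SE 0.38) was opposite to that on day 10 (-0.67, SE 0.39). With all libraries it was not called in either fit. In the blocked fit it was called without the WT (-0.53, edgeR adjusted p = 0.0163) or the *Il21r*-/- library of day 7 (-0.53, adjusted p = 0.0159), and its sign was reversed without either library of day 10. *Nfkbib* (Entrez 18036, chromosome 7, 28758251 to 28766644), which encodes IkB-beta, was the steadiest of the 10. Its range was 50.2 to 52.0 CPM in WT and 47.0 to 53.5 CPM in *Il21r*-/- libraries, with a log2 fold change of 0.04 and a 95% interval from -0.15 to 0.23.

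Among the subunits, *Nfkb2* (Entrez 18034, chromosome 19, 46300994 to 46312400), the subunit of the alternative pathway and itself an NF-kB target, had 71.1 CPM in WT and 67.4 CPM in *Il21r*-/- cells on day 7, 96.8 and 133.3 CPM on day 10, and 86.2 and 114.5 CPM on day 14. Both libraries of day 7 were below the other 4, and *Il21r*-/- was above WT on days 10 and 14. Its log2 fold change over 3 days was -0.29 (SE 0.20, edgeR adjusted p = 0.442), and with day as a block -0.27 (SE 0.10, edgeR adjusted p = 0.0462). Without the *Il21r*-/- library of day 10 it was -0.05 with linear day (edgeR adjusted p = 0.847), and without that of day 7 -0.52 (adjusted p = 0.1275). The blocked call was lost without any one library of day 10 (-0.17 for each, edgeR adjusted p = 0.359 and 0.360) or of day 14 (-0.20 and -0.19, adjusted p = 0.408 and 0.387). The gene shares exonic or intronic stretches with 4833438C02Rik, which had 139 to 245 counts a library, and with *Psd*, which had 83 to 200, against 1545 to 3498 for *Nfkb2*. The strand setting of the counting is not given in the sources used here, so reads in the shared stretches cannot be told apart.

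*Relb* (Entrez 19698, chromosome 7, 19606217 to 19629438), the partner of the *Nfkb2* product, was at 34.7 and 35.2 CPM in WT and *Il21r*-/- cells on day 7, 37.2 and 46.5 CPM on day 10, and 33.2 and 42.2 CPM on day 14. *Il21r*-/- was above WT on all 3 days in 4 of the 10 genes, *Relb*, *Nfkbia*, *Nfkbie* and *Tnfaip3*, beside 27.9% of all genes tested, but the day 7 library of *Relb* lay among the WT values. The log2 fold change of -0.23 (SE 0.13) was not called with linear day (edgeR adjusted p = 0.340) or with day as a block (adjusted p = 0.0987), and in the blocked fit it was called only without the WT library of day 7 (-0.32, edgeR adjusted p = 0.0494).

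The subunits of the canonical pathway did not separate by genotype. *Nfkb1* (Entrez 18033, chromosome 3, 135584655 to 135691969) had 167.8 and 171.3 CPM in WT and *Il21r*-/- cells on day 7, 154.9 and 181.0 CPM on day 10, and 130.7 and 130.4 CPM on day 14. *Rela* (Entrez 19697, chromosome 19, 5637442 to 5648134), whose product is the main activating partner of the *Nfkb1* product, had 79.6 and 73.1 CPM, then 81.3 and 89.2 CPM, then 66.0 and 68.8 CPM on the same days. *Rel* (Entrez 19696, chromosome 11, 23736847 to 23770969), which encodes c-Rel, a subunit that established GC are known to need, had 44.7 and 36.3 CPM, then 28.6 and 43.2 CPM, then 28.0 and 27.1 CPM. In all 3 genes the genotypes overlapped, and for *Rel* the higher library was WT on day 7 and *Il21r*-/- on day 10, where its log2 fold change was -0.60 (SE 0.31). The 95% interval of the log2 fold change (1.96 SE to each side) was -0.29 to 0.12 for *Nfkb1*, -0.27 to 0.21 for *Rela* and -0.41 to 0.23 for *Rel*. Differences over 3 days beyond 1.5-fold lay outside all 3 intervals, which are normal approximations and so somewhat narrow. Without the *Il21r*-/- library of day 10 the signs of *Rel* (0.07) and *Rela* (0.09) were reversed.

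**Figure D2:**
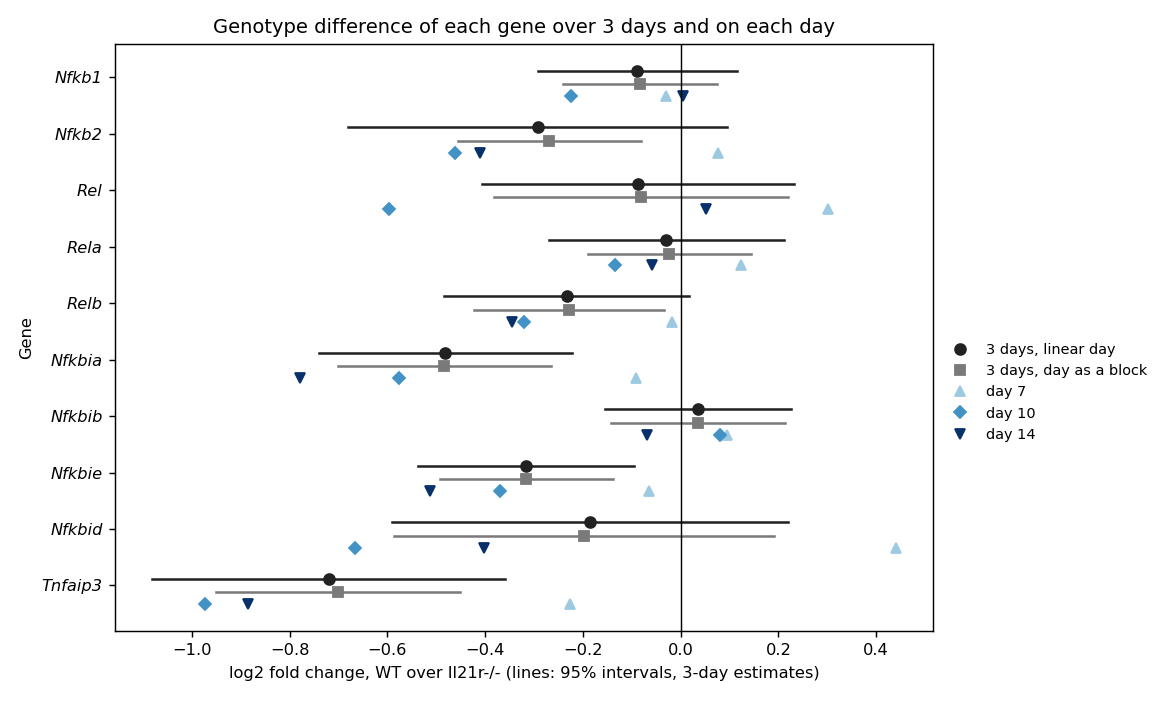
Log2 fold change of WT over *Il21r*-/- cells (horizontal axis) for each gene, over 3 days with linear day (circles) and with day as a block (squares), with 95% intervals as lines, and on days 7, 10 and 14 (triangles and diamonds, no intervals). Intervals span 1.96 SE to each side. The 3-day intervals of *Nfkbia*, *Nfkbie* and *Tnfaip3* lie below zero in both fits, and those of *Nfkb2* and *Relb* with the block alone.

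The genotype effect was then estimated on each day, from 1 library per genotype, with the spread taken from the fit over all 6 libraries. On day 7, 0 of the 10 genes were called by edgeR's likelihood ratio test (1.07% of all genes). None had an unadjusted p under 0.05 (606 of all 11005 genes). Signs were split, with 5 of 10 below zero and a median of 0.03. On day 10, 0 were called (3.10% of all genes) and 2 had an unadjusted p under 0.05 (1190 of all 11005 genes). There, 9 of 10 were below zero with a median of -0.42. On day 14, 0 were called (3.28% of all genes) and 3 had an unadjusted p under 0.05 (1330 of all 11005 genes). There, 8 of 10 were below zero with a median of -0.37. DESeq2's Wald test, run day-wise with a linear day term in place of a mean per day, called 0 of the 10 on each day. Its estimates are therefore not the plain difference between the libraries of a day. For *Tnfaip3* on day 10 it gave -0.63, against -0.97 with a mean per day. When the spread was taken from the fit with day as a block, *Tnfaip3* was called on day 10 (-0.97, edgeR adjusted p = 0.000903), beside 7.47% of all genes. On day 14 that spread called *Tnfaip3* (-0.89, edgeR adjusted p = 0.0036), *Nfkbia* (-0.78, adjusted p = 0.00407) and *Nfkbie* (-0.51, adjusted p = 0.0356), beside 9.59% of all genes. With the spread of the linear fit the same values had edgeR adjusted p of 0.112 and 0.186 for *Tnfaip3*, 0.0701 for *Nfkbia* and 0.307 for *Nfkbie*.

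For the 3 feedback inhibitors the day 7 values were -0.23 (*Tnfaip3*), -0.09 (*Nfkbia*) and -0.06 (*Nfkbie*), all nearer to zero than on the later days. Whether a genotype difference changed with day was tested by the interaction of genotype and linear day. It called 0 of the 10 genes and 0 of all genes, with 1 member and 118 genes at an unadjusted p under 0.05, and DESeq2's Wald test also called 0 members. *Nfkbia* was that member, and its log2 fold change shifted by -0.10 per day (SE 0.04, edgeR adjusted p = 1). With day as a block, which was added after the data had been seen, 0.282% of all genes and 0 of the 10 were called, and *Nfkbia* had an adjusted p of 0.348.

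Across both genotypes, the estimate of the linear day trend was -0.06 log2 units per day for *Nfkb1* (SE 0.02, edgeR adjusted p = 0.1197) and -0.08 for *Rel* (SE 0.03, adjusted p = 0.142), while *Nfkbia* had 0.06 (SE 0.02, adjusted p = 0.182) and *Nfkb2* 0.07 (SE 0.03, adjusted p = 0.315). None of the 10 genes was called, beside 4.43% of all genes tested, and DESeq2's Wald test called 0. In edgeR's test 3 of the 10 had an unadjusted p under 0.05, as had 2587 of all 11005 genes. Without the *Il21r*-/- library of day 10, *Nfkb1*, *Rel* and *Nfkb2* were called (edgeR adjusted p = 0.0143, 0.0161 and 0.0480), as were 2177 genes of all against 488. Leaving out either library of day 7 or of day 14, or the WT library of day 10, called none of the 10.

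Levels of different genes were compared per length, as CPM per kilobase of the deposited gene length (RPKM). The mean over the 6 libraries was highest for *Nfkbia* (59.3 RPKM), followed by *Nfkb1* (37.9), *Nfkbie* (29.9), *Nfkb2* (28.8), *Rela* (28.2), *Nfkbib* (25.96), *Relb* (17.3), *Rel* (13.4), *Nfkbid* (7.52) and *Tnfaip3* (5.69 RPKM). Neighbors in this order overlapped over the 6 libraries except at 3 places. *Nfkbia* was above *Nfkb1* (lowest library 45.8 against highest 44.0 RPKM), *Nfkbib* above *Relb* (24.2 against 21.1 RPKM), and *Rel* above *Nfkbid* (10.5 against 10.2 RPKM). *Tnfaip3* was thus the least abundant by its mean, but not in every library, since in *Il21r*-/- cells it had 8.71 RPKM on day 10 and 7.74 RPKM on day 14 against 8.61 and 7.61 RPKM for *Nfkbid*.

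The 5 subunit genes summed to 125 RPKM in WT and 119 RPKM in *Il21r*-/- cells on day 7, 125 and 155 RPKM on day 10, and 108 and 121 RPKM on day 14. The share of *Nfkb2* in this sum was 17.3% in WT and 17.2% in *Il21r*-/- cells on day 7, then 23.5% and 26.1%, then 24.2% and 28.6% on the later days. It was lowest on day 7 in both genotypes, and above WT in *Il21r*-/- cells on the 2 later days. The ratio of *Nfkb2* to *Nfkb1* in RPKM went from 0.530 on day 7 to 0.781 on day 10 and 0.825 on day 14 in WT, and from 0.492 to 0.921 and 1.10 in *Il21r*-/- cells. *Rel*, by contrast, had its largest share in the WT library of day 7 (13.9%) and its smallest in the *Il21r*-/- library of day 14 (8.62%). These shares are descriptions of single libraries, with no test.

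**Figure D3:**
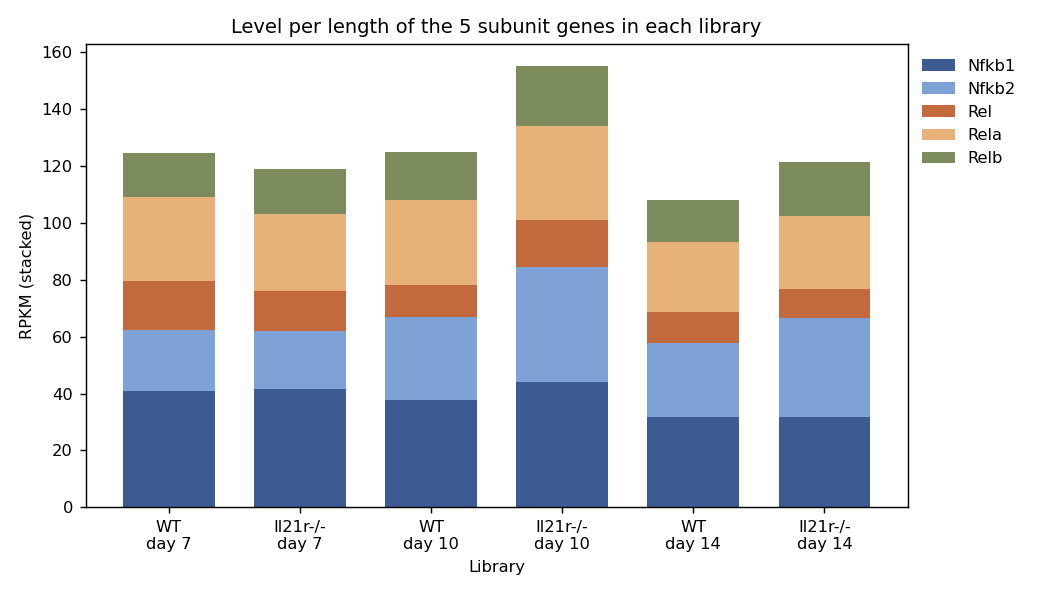
Stacked RPKM (vertical axis) of the 5 subunit genes in each of the 6 libraries, in pairs of WT and *Il21r*-/- for days 7, 10 and 14. The tallest bar is the *Il21r*-/- library of day 10 (155 RPKM), and the *Nfkb2* segment is larger on days 10 and 14 than on day 7 in both genotypes.

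The balance of inhibitor to subunit RNA was read from ratios within a library. *Nfkbia* to *Rela* in RPKM was 1.69 in WT and 1.96 in *Il21r*-/- cells on day 7, then 1.52 and 2.07, then 2.11 and 3.47 on the later days. *Tnfaip3* to *Rela* was 0.142 and 0.181, then 0.148 and 0.265, then 0.172 and 0.305. Both ratios were higher in *Il21r*-/- than in WT cells on every day, and their genotypes differed most on day 14 and on days 10 and 14, respectively. *Nfkbia* to *Nfkbib*, an inhibitor that is not induced by NF-kB to the same degree, was 1.92 and 2.18, then 1.71 and 2.70, then 1.96 and 3.20.

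The rest of the pathway was followed in 67 further genes listed by role, a list also chosen with earlier results of these data known. Of the 67 genes, 62 were tested. Of these, 11 were called over 3 days with linear day, all higher in *Il21r*-/- cells (17.7%, beside 5.92% of all genes tested), and the median log2 fold change of the 62 was -0.14 against -0.01 over all genes. The calls lay mostly among target genes, 8 of 23, and 3 of those 8 were the near-identical *Bcl2a1* copies. Without the WT library of day 14 the count was 3 (*Ccl22*, *Cd80* and *Tlr7*), without the *Il21r*-/- library of day 14 it was 7, and without the *Il21r*-/- library of day 10 it was 16. With day as a block 22 were called (35.5%, beside 22.9% of all genes tested), 19 higher in *Il21r*-/- and 3 (*Bcl3*, *Gadd45b* and *Ccnd2*) higher in WT cells.

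Among the target genes, *Ccl22*, a chemokine that attracts T cells, had 27, 12 and 24 counts in WT and 409, 824 and 500 counts in *Il21r*-/- libraries of days 7, 10 and 14. No WT library came near any *Il21r*-/- library, and the log2 fold change was -4.74 (SE 0.35, edgeR adjusted p = 0.000243). *Cd80*, a costimulatory ligand for T cells, had 2.05, 3.01 and 3.84 CPM in WT and 6.50, 12.7 and 17.8 CPM in *Il21r*-/- libraries (-2.003, SE 0.19, edgeR adjusted p = 0.000976). *Cd83*, a light zone surface protein, had 382.7 to 534.9 CPM in WT and 793.7 to 915.8 CPM in *Il21r*-/- libraries (-0.93, SE 0.14, adjusted p = 0.00669). The survival gene *Bcl2l1* (-0.98, SE 0.17), *Ebi3*, a cytokine subunit (-1.16, SE 0.20), and the survival genes *Bcl2a1a*, *Bcl2a1b* and *Bcl2a1d* (-1.17, -1.12 and -1.001) were the other targets called. None of these calls, nor that of *Cd83*, remained without the WT library of day 14 (edgeR adjusted p from 0.0839 to 0.149). The 3 *Bcl2a1* genes are near-identical copies whose reads the counting could split between them, so they amount to 1 observation. Other common targets were not called with linear day, such as *Icam1* (0.08, SE 0.09), *Traf1* (-0.17, SE 0.11), *Tnf* (-0.06, SE 0.14) and *Myc* (-0.05, SE 0.16).

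Of the 39 tested pathway genes other than targets, 3 were called (7.69%, beside 5.92% of all genes). Of 11 receptors and adapters tested, 2 were called, *Cd40*, the receptor for T cell help (87.1, 98.5 and 105.7 CPM in WT against 121.1, 130.3 and 172.9 CPM in *Il21r*-/- libraries, -0.53, SE 0.10, edgeR adjusted p = 0.0164), and *Tlr7*, a receptor for RNA (-2.09, SE 0.28, adjusted p = 0.00407). *Tlr7* was low in all libraries, at 0.983 to 2.05 CPM in WT and 4.54 to 8.31 CPM in *Il21r*-/- libraries. In the NIK pathway 1 of 4 was called, *Birc2* (-0.45, SE 0.11, edgeR adjusted p = 0.0449), which encodes a ubiquitin ligase of the complex that keeps NIK low. The calls of *Cd40* and *Birc2* were both lost when any library other than the *Il21r*-/- one of day 10 was left out, at edgeR adjusted p from 0.0572 to 0.199 for *Cd40* and from 0.0623 to 0.353 for *Birc2*, and that of *Birc2* also when the Ig variable, *Xist* and Y chromosome genes were kept in the table (0.0526). *Map3k14*, the gene of NIK itself, had -0.16 (SE 0.18). None of the IKK and TAK1 kinases (0 of 8), the other IkB proteins (0 of 2) or the ubiquitin editors (0 of 10) was called with linear day. With day as a block *Ikbkb*, a catalytic subunit of IKK, was called at -0.40 (SE 0.10, edgeR adjusted p = 0.00251), *Rnf11*, a partner of the *Tnfaip3* product, at -0.34 (SE 0.10, adjusted p = 0.0129), and both other IkB proteins, *Nfkbiz* at -0.81 (SE 0.21, adjusted p = 0.00538) and *Bcl3* at 0.58 (SE 0.13, adjusted p = 0.00182).

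**Figure D4:**
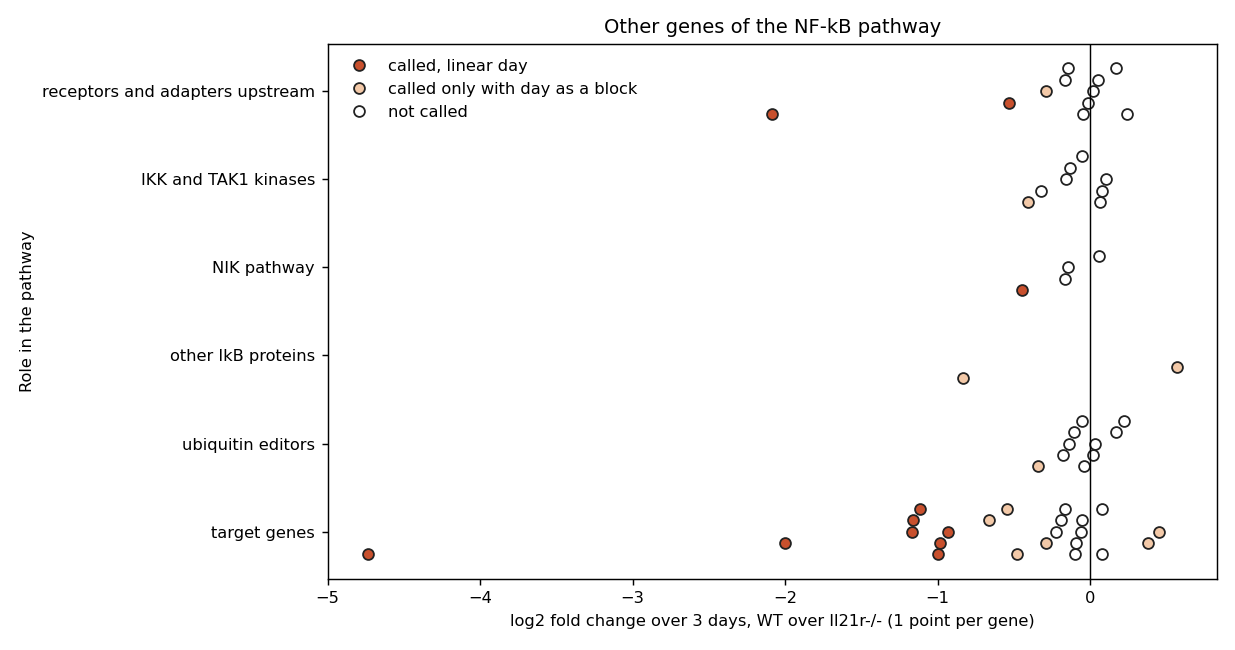
Log2 fold change over 3 days of WT over *Il21r*-/- cells (horizontal axis) for 58 of the 62 other pathway genes tested, 1 point per gene, in rows by role. Filled points are the 11 genes called with linear day, all left of zero with *Ccl22* farthest at -4.74, light points those called only with day as a block, and open points the rest.

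The genotypes also differed in markers of GC zone, which were sequenced together. Over all 11005 genes tested, 497 were called higher in *Il21r*-/- and 154 in WT cells with linear day (5.92% together). With day as a block these numbers were 1492 and 1027 (22.9% together). Of 14 light zone genes tested, 7 were called with linear day, all higher in *Il21r*-/- cells, and 5 of the 11 that are not on the pathway list. Those 11 summed to 410.7 to 752.7 CPM in WT and to 806.9 to 1208 CPM in *Il21r*-/- libraries. One of them, *Fcer2a*, is also on the list of B cells outside the GC, and without it the sums overlapped, at 256.5 to 360.5 CPM in WT and 296.4 to 400.8 CPM in *Il21r*-/- libraries, with 4 of 10 called. Of 14 dark zone genes, 0 were called with linear day and 8 with day as a block, higher in WT, and their sum was 3776 to 4464 CPM in WT and 3473 to 3828 CPM in *Il21r*-/- libraries. The part of zone makeup in the differences of *Tnfaip3*, *Nfkbia*, *Nfkbie* and *Nfkb2* was not tested. Markers of B cells outside the GC moved as well. Of 8 tested, 4 (*Ccr7*, *S1pr1* and *Fcer2a* among them) were higher in *Il21r*-/- and 1 (*Ighm*) in WT cells, their sum was 559.1 to 1215 CPM in WT and 934 to 1440 CPM in *Il21r*-/- libraries, and *Ighd* was at 0.983 to 1.68 CPM in all. Their part in the result was not tested. Myeloid markers summed to 2.52 to 6.60 CPM in WT and 2.59 to 8.77 CPM in *Il21r*-/- libraries, with 3 of 8 tested and 0 called with linear day, but *Adgre1*, a macrophage gene with 4 to 43 counts a library, was called higher in *Il21r*-/- cells with day as a block (-1.35, SE 0.34, edgeR adjusted p = 0.00313). Erythroid markers summed to 9.92 to 19.0 and 4.80 to 33.6 CPM, with 3 tested and 0 called in either fit. T cell markers had 1 of 8 tested and 0 called in either fit, *Lck*, which made up nearly all of their sum of 82.1 to 122 CPM. Of 4 plasma cell genes tested, *Prdm1* was called higher in WT and *Xbp1* higher in *Il21r*-/- cells with linear day, and 1 was higher in WT and 3 in *Il21r*-/- cells with day as a block. None of these list counts was repeated with a library left out.

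For 3 genes, the genes whose log2 CPM followed theirs most closely over the 6 libraries were listed as a description. For *Rel* these were *Mavs*, *Tmem245*, *Frs2*, *Trim65* and *Kbtbd2* (Pearson r from 0.998 to 0.980), for *Nfkb2* *Rapgef1*, *Mrtfb*, *Whrn*, *Tent4a* and *Tfe3* (0.984 to 0.970), and for *Nfkbia* *Pla1a*, a gene without symbol (Entrez 667148), *Bbc3*, *Asl* and *Snx11* (0.983 to 0.979). None of the other members was among them. With 6 libraries that share day and genotype, many genes follow any profile, and 143, 117 and 106 genes had an r of at least 0.9 with *Rel*, *Nfkb2* and *Nfkbia*.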

How the data were processed

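Single-end reads of 100 bases had been mapped by the authors to mm10 with Rsubread and summarised per gene by featureCounts, using the RefSeq models built into it. Technical replicates were merged, and the deposited values are raw whole-number counts per gene. CASAVA 1.8.2 is named in the submitters' processing notes. Strand and multi-mapping settings are not given in the sources used here. The single-library files and the table of all libraries held identical counts. Symbols came from RefSeq (GRCm38.p6) for 25275 Entrez identifiers and from GENCODE for 18, and 1886 had none.

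The tests covered 11005 genes of the deposited count table, after removal of those with an average log2 CPM under 0, of Ig variable genes, and of *Xist* and the genes of the Y chromosome (R 4.3.3, edgeR 4.0.16, TMM). CPM refer to the counts on these genes, scaled by TMM. Dispersions were estimated robustly on genotype plus linear day (common dispersion 0.017, 3 residual degrees of freedom). The genotype effect over 3 days, day trend and interaction used the quasi-likelihood test, and day-wise effects a likelihood ratio test with a mean per day. P-values were adjusted by Benjamini-Hochberg over all genes tested, with a threshold of 0.05, and SEs came from the information matrix. P-values measure the spread between these libraries. The libraries of a day deviated together from their genotype means (r = 0.640, 0.413 and 0.645 across genes on days 7, 10 and 14). The linear day trend was not removed first, so these values cannot tell pairing from that trend. As the labels give the day, a fit with day as a block (2 residual degrees of freedom) was run as well. Alternatives were DESeq2 1.42.0 and its size factors, other expression filters, the removed gene classes kept, the likelihood ratio test, a linear day term in the day-wise fit, and fits without 1 library at a time. DESeq2's day-wise fit also used that linear day term and not a mean per day. Scripts were tested on simulated data.

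The members, pathway lists, marker lists and tests were chosen with earlier results of these data known. All 10 members are named. Pathway genes are named when called over 3 days with linear day, and others beside them (*Icam1*, *Traf1*, *Tnf*, *Myc*, *Map3k14*, *Ikbkb*, *Rnf11*, *Bcl3*, *Gadd45b*, *Ccnd2*, *Nfkbiz*, *Ltb*, *Ltbr* and the marker *Adgre1*) were chosen after their values were seen. Some members of the marker and pathway lists, and 1 pathway role with its row in the plot, are not reported here. Promoter sequences are RefSeq's.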

Additional observations from a re-analysis of the deposited data

How the results depend on the processing

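Of 733 values of single genes under the alternatives, 644 kept their direction and their side of the threshold, 31 passed it, 33 no longer did and 25 reversed. Members called over 3 days numbered 2 with all genes with any count, 2 by the likelihood ratio test, 2 by DESeq2's Wald test and 4 with the replicate block. Genes called then numbered 991 with any count, 1193 by the likelihood ratio test, 951 by DESeq2's Wald test and 2519 with the block, and pathway genes 22 with the block. The filter of any count tests more genes than the main one, so its 991 is not a share of the same total. Day-wise, the replicate block gave 303 genes on day 7, 822 genes and 1 member on day 10, and 1055 genes and 3 members on day 14. DESeq2's Wald test, which here used a linear day term, gave 32, 132 and 94 genes. The linear day term kept gave 722 genes and 0 members on day 10, and 396 genes and 1 member on day 14. The day trend called 869 genes with any count and 870 by DESeq2, and the interaction 31 with the block. The block changed no other call of a member. The cause of these shifts was not tested, but the biological coefficient of variation was 8.89% in the blocked fit and 13.1% with linear day.

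Leaving out 1 library at a time gave 0 to 2 members, 132 (without WT of day 14) to 2165 genes and 3 to 16 pathway genes over 3 days. It gave 1 to 6 members in the blocked fit, 104 to 220 genes on day 7, 267 to 418 genes and 0 to 1 members on day 10, 341 to 704 genes and 0 to 2 members on day 14, 0 to 2177 genes and 0 to 3 members for the day trend, and 0 to 12 genes for the interaction. A day that lost a library had no genotype effect in the day-wise fit. The day-wise ranges therefore come only from fits without a library of another day, which changes the spread and not the libraries compared.

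Signs near zero reversed. On day 14 *Nfkb1* was -0.00079 with DESeq2's size factors, -0.065 by DESeq2's Wald test and -0.070 with the linear day term kept, and *Rel* was -0.078 and -0.084 under the last 2. On day 7 *Nfkb2* was -0.19 and -0.21 and on day 10 *Rela* 0.078 and 0.073 under the same 2. On day 7 *Rela* was -0.0098 with the linear day term. Day-wise, DESeq2's Wald test and the linear day term kept used the same design, so their reversals are not separate observations. Over 3 days, without 1 library, *Rel* ranged from -0.23 to 0.072 and *Rela* from -0.13 to 0.085. In the blocked fit the ranges were -0.27 to 0.18 for *Rel*, -0.089 to 0.033 for *Rela* and -0.53 to 0.036 for *Nfkbid*, positive without either library of day 10. The day trend ranged from -0.096 to 0.0058 for *Nfkbid*, from -0.015 to 0.033 for *Relb*, from -0.011 to 0.034 for *Nfkbie* and from -0.0099 to 0.075 for *Tnfaip3*. The members had at least 247 counts in every library.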

Other observations

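The same promoter windows were set beside the genotype calls of all genes, as values with no test. Of 1019 tested genes with an NF-kB consensus in a window, 4.91% were called higher in *Il21r*-/- cells with linear day, against 4.49% of all 8529 tested genes with a window, and 13.9% against 13.1% with day as a block. Of the 40 tested genes with its narrower form (GGGA, any base, then TTTCC), 3 (7.5%) were called higher in *Il21r*-/- cells with linear day and 11 (27.5%) with day as a block. The members *Nfkb2* and *Nfkbia* are among these 40, and both are among the 11 called with day as a block. In the other direction, 0 of the 40 were called higher in WT cells with linear day and 4 (10%) with day as a block. For all tested genes with a window these shares were 1.41% and 9.57%, and for those with the consensus 1.47% and 9.13%.

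The other nuclear IkB proteins had opposite signs. *Bcl3*, which acts with the *Nfkb1* and *Nfkb2* products, had 12.1, 18.3 and 16.9 CPM in WT and 6.11, 12.99 and 13.6 CPM in *Il21r*-/- libraries on days 7, 10 and 14. *Nfkbiz* had 2.05, 2.64 and 2.11 CPM in WT and 2.92, 5.26 and 3.97 CPM in *Il21r*-/- libraries. WT was above *Il21r*-/- on each day for *Bcl3* and below it on each day for *Nfkbiz*. Their log2 fold changes were 0.57 (SE 0.22) and -0.83 (SE 0.26), not called with linear day (edgeR adjusted p = 0.175 and 0.102) and called with day as a block (adjusted p = 0.00182 and 0.00538).

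*Ltb*, which encodes lymphotoxin beta, a ligand of the alternative pathway, had 711.9, 492.2 and 440.6 CPM in WT and 872.4, 718.8 and 768.3 CPM in *Il21r*-/- libraries. On each day the *Il21r*-/- library was the higher, with -0.55 over 3 days (SE 0.14, edgeR adjusted p = 0.0546, and 3.56e-05 with day as a block). Its receptor gene *Ltbr* had 0 to 7 counts a library and was not tested.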
